A study of Mus musculus with 84 samples.

Results

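GABA-A receptor subunit genes were followed in neurons of the mouse frontal cortex after a single injection of the psychedelic amphetamine DOI (2,5-dimethoxy-4-iodoamphetamine), an agonist of the serotonin 2A receptor. The 7 genes were given as a list of symbols, Gabra2, Gabra3, Gabra4, Gabra5, Gabrb1, Gabrb2 and Gabrd, and all 7 were found among the 55401 gene IDs of the count tables. All 7 also passed the filter on low counts, which left 17941 genes for testing. The mice were of strain 129S6/SvEvTac and 12 weeks old, and each had received vehicle or DOI. The groups were vehicle and 3 times after DOI: 24 h, 48 h and 7 days. Each group had RNA from 4 mice in 8 libraries, made from nuclei sorted for NeuN, a protein of neuronal nuclei, so each sample mixed many types of neuron. The study's chromatin samples were not analysed here.

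GABA-A receptors are pentameric chloride channels that open when GABA binds, and they carry most fast synaptic inhibition in the cortex. A typical receptor joins alpha and beta subunits with a gamma or a delta subunit, and GABA binds where beta meets alpha. The alpha subunit sets much of a receptor's kinetics and its place in the cell: receptors with alpha5 or delta lie largely outside synapses and carry tonic inhibition, whereas those with alpha2 or alpha3 are mostly synaptic.

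Levels are given in CPM, counts scaled to a common total with TMM factors, and a gene was called where its adjusted p was below 0.05 in edgeR's quasi-likelihood test over all tested genes. Gabrb2, which encodes the beta2 subunit, was 1.95-fold lower at 24 h and 1.87-fold lower at 48 h than in vehicle mice, and both differences were called. Gabra5, which encodes the alpha5 subunit, was 1.80-fold lower at 48 h and was called there. The other 5 genes were called in no comparison. At 7 days none of the 7 was called against vehicle.

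These counts were read against the background of all tested genes. At 24 h 1 of the 7 genes (14.3%) was called, in the lower direction, where 24.2% of all tested genes were called, 13.8% higher and 10.4% lower. At 48 h 2 of the 7 (28.6%) were called, both lower, where 30.1% of all genes were called, 16.8% higher and 13.3% lower. At 7 days 0 of the 7 and 0% of all genes were called against vehicle by edgeR, although 2 of the 7 (Gabrb2 and Gabra3) and 3012 of all genes had an unadjusted p below 0.05. DESeq2 called 796 of all genes and 0 of the 7 in that comparison. The test over all 4 groups at once called 1 of the 7 genes (14.3%), Gabrb2, where 18.8% of all genes were called. Called shares of the 7 genes were thus below or near those of the whole table. The median log2 fold change of the 7 genes was 0.03 at 24 h, 0.01 at 48 h and -0.07 at 7 days, against 0.03, 0.02 and 0.02 for all tested genes.

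Libraries of the DOI groups also differed from those of vehicle in other ways. Totals per mouse, both libraries added up, ran from 5834248 to 12354785 counts, and at 24 h and 48 h every mouse had fewer counts than every vehicle mouse. The 18S ribosomal RNA pseudogene Rn18s-rs5 stood at 72.3 to 110.0 CPM in vehicle mice. It reached 3258 to 15064 CPM at 24 h and 5107 to 16124 CPM at 48 h. At 7 days it split the group, with 87.3 and 63.4 CPM in mice 1 and 3 and 6171 and 4622 CPM in mice 2 and 4. Markers of excitatory neurons summed to 468 to 531 CPM in vehicle mice, 908 to 2372 CPM at 24 h and 1417 to 2154 CPM at 48 h, with 2 of 6 called higher (Tbr1 and Camk2a) at each time. Of 9 interneuron markers, 1 was called higher (Slc32a1) and 2 lower (Gad1 and Gad2) at 24 h, and their sum ranged from 1753 to 3222 CPM in vehicle mice and from 2036 to 2888 CPM at 24 h. Of the striatal projection neuron markers, 8 of 9 were tested and 2 (Drd1 and Ppp1r1b) were called lower at 24 h, 1 (Rgs9) was called higher at 48 h, and Drd1 was called higher at 7 days against 24 h. Their sum reached 2079 CPM in 7 days mouse 2 and 1549 CPM in mouse 4, against 379 to 465 CPM in vehicle mice. Of the astrocyte markers none was called. Their sum was 622 to 690 CPM in vehicle mice and 704 to 1099 CPM at 24 h, most of it from Slc1a2 (means of 501 and 704 CPM). The mean of Aqp4 was also higher at 24 h (6.36 CPM in vehicle mice and 12.8 CPM at 24 h). Those of Aldh1l1, Slc1a3, Gja1 and the untested Gfap were lower. No marker was at 0 in all mice. Of 5 neuron markers, Rbfox3 and Stmn2 were called higher and Snap25 lower at both times, and Map2 higher at 48 h. In the glial and vascular lists, Mbp was called lower and Cspg4 and Ly6c1 higher at 24 h, and Cnp and Olig1 lower and Cspg4 higher at 48 h. The mitochondrial share of counts was 0.0171 to 0.0701% in vehicle mice, 0.0621 to 0.101% at 24 h and 0.108 to 0.268% at 48 h, the last without overlap. The Rn18s-rs5 share and the number of detected genes were each tried as a covariate, and the part of the other differences in the results was not tested. The file headers gave 3 mice (mouse 1 at 24 h, mouse 2 at 48 h, mouse 2 at 7 days) other numbers than the labels, and the labels were followed. In RNA from mixed nuclei, fewer nuclei of a type and less RNA per nucleus cannot be told apart.

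The 2 genes with called changes lie on different chromosomes. Gabrb2 spans chr11:42419757-42629028 (GRCm38, plus strand) and Gabra5 spans chr7:57407672-57510059 (minus strand). RefSeq gives Gabra5 1 start window and Gabrb2 3, of which the most upstream is used. That RefSeq start lies downstream of the gene's start in the annotation of the count tables, so the Gabrb2 stretch shown is inside the span given above, between its exons. The 250 bases before these RefSeq start sites are shown because they belong to the only members with called changes. They come from RefSeq (GRCm38.p6), chr11:42420190-42420439 on the plus strand for Gabrb2 and chr7:57510060-57510309 on the minus strand for Gabra5, and run 5′ to 3′ toward the start site. Capitals mark the motifs named below the sequences, on either strand.
Gabrb2: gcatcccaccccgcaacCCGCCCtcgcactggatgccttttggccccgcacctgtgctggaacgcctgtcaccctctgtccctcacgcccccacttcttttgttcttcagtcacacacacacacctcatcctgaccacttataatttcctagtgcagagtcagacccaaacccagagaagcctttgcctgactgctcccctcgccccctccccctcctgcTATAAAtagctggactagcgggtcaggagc
Gabra5: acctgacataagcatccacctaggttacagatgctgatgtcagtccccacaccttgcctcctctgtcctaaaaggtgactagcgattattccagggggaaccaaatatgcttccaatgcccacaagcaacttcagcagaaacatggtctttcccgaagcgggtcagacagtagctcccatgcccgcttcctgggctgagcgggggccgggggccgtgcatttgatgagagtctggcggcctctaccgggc

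The Gabrb2 sequence held TATAAA at -30 to -25 from the start site and, on the reverse strand, GGGCGG at -233 to -228. The Gabra5 sequence held neither. Windows of 300 bases around the start, 250 before and 50 after, were searched on both strands for the TATA box letters TATAAA, the GC box GGGCGG, the cAMP response element TGACGTCA, the E-box CACGTG and the Egr motif GCGTGGGCG, whose end can overlap a GC box. Of 32851 RefSeq windows, 13.6% held the TATA box, 35.7% the GC box, 1.79% the cAMP response element, 7.15% the E-box and 0.612% the Egr motif. The 10 windows of the 6 members that had one held the TATA box in 3 (the most upstream of Gabrb2 and both windows of Gabra3, which overlap and share 1 site on the reverse strand, so there are 2 sites in all) and the GC box in 3 (Gabra2, Gabra4 and the same Gabrb2 window), and the other motifs in 0. The other 2 Gabrb2 windows held none of the motifs, with a GC content of 54.7 and 41.0% and 9 CpG each. GC content of the most upstream Gabrb2 window was 59.0% with 11 CpG, and that of the Gabra5 window was 56.7% with 13 CpG, where the median window had 52.7% and 7 CpG. A match to these letters is a description of the sequence and says nothing of binding.

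Beta subunits form the GABA-binding face together with alpha. Gabrb2 measured 247, 222, 208 and 232 CPM in vehicle mice 1 to 4. At 24 h it measured 112, 111, 106 and 137 CPM and at 48 h 152, 87.5, 146 and 99.3 CPM. Every mouse at 24 h and 48 h thus lay below the lowest vehicle mouse. The means were 227 ± 16.4 CPM (SD, n = 4) in vehicle mice, 116 ± 13.8 CPM at 24 h and 121 ± 32.5 CPM at 48 h. The log2 fold change was -0.96 at 24 h (SE 0.22, adjusted p = 0.00596) and -0.91 at 48 h (SE 0.22, adjusted p = 0.00645). At 7 days the 4 mice measured 225, 114, 151 and 127 CPM, so that mouse 1 was within the vehicle range and the other 3 were below it. The 7 days mean was 154 ± 49.5 CPM and the log2 fold change -0.56 (SE 0.22, adjusted p = 0.204, 95% interval -1.01 to -0.11), which was not called. Without 7 days mouse 1 it was -0.80 and was called (adjusted p = 0.0251), in a fit that called 1342 of all genes. Both the 24 h and the 48 h call held when any mouse was left out. With the Rn18s-rs5 share as a covariate the values were -0.51 at 24 h and -0.42 at 48 h and neither was called (adjusted p = 0.961 and 0.996); 0 genes of the whole table were called in that fit, in which the share and the group cannot be told apart.

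Gabrb1, which encodes the beta1 subunit, measured 315, 192, 259 and 241 CPM in vehicle mice. It measured 247, 354, 289.6 and 290.1 CPM at 24 h, 346, 249, 319 and 331 CPM at 48 h, and 274, 346, 183 and 286 CPM at 7 days. The DOI groups all overlapped the vehicle group. Means ran from 252 ± 50.9 CPM in vehicle mice to 311 ± 42.7 CPM at 48 h. The log2 fold change was 0.23 (SE 0.20, adjusted p = 0.423, 95% interval -0.20 to 0.65) at 24 h and 0.31 (SE 0.20, adjusted p = 0.256, interval -0.12 to 0.73) at 48 h. At 7 days it was 0.11 (adjusted p = 0.809, interval -0.31 to 0.54), and no call was made at any time. With the Rn18s-rs5 share as a covariate the sign turned, to -0.40, -0.36 and -0.17, again without a call.

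**Figure D1:**
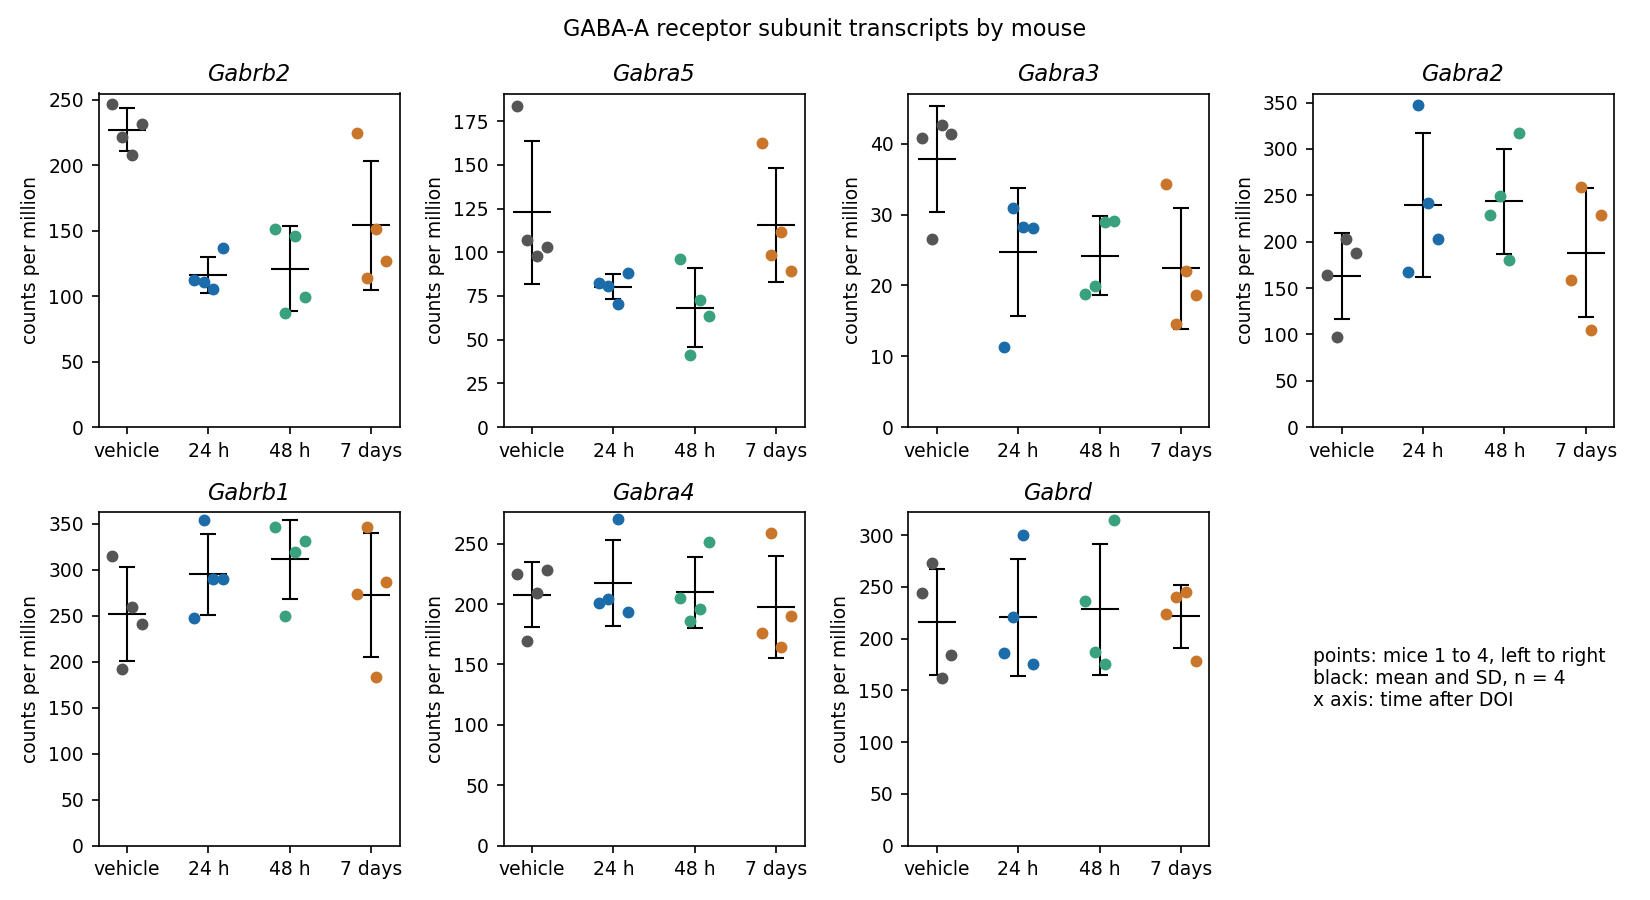
CPM of each of the 7 genes (vertical axis, 1 panel per gene) in each mouse, as points, by group, with the mean and SD of the 4 mice. In the Gabrb2 panel all mice at 24 h and 48 h sit at 152 CPM or below and all vehicle mice at 208 CPM or above, whereas in the panels of Gabra4 and Gabrd the 4 groups overlap.

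Among the alpha subunits, Gabra5 encodes alpha5, found mostly in extrasynaptic receptors. It measured 184, 107, 97.7 and 103 CPM in vehicle mice, where mouse 1 stood apart above the other 3. At 24 h the mice measured 82.4, 80.5, 70.6 and 87.9 CPM and at 48 h 96.0, 41.2, 72.6 and 63.4 CPM. Neither group overlapped vehicle, although the highest 48 h mouse lay just under the lowest vehicle mouse. Means were 123 ± 40.7 CPM in vehicle mice, 80.4 ± 7.22 CPM at 24 h and 68.3 ± 22.7 CPM at 48 h. The log2 fold change was -0.61 (SE 0.25, adjusted p = 0.0839, 95% interval -1.14 to -0.08) at 24 h, not called, and -0.85 (SE 0.26, adjusted p = 0.02) at 48 h. At 7 days the mice measured 162, 98.2, 112 and 89.5 CPM, which overlapped the vehicle range, with a mean of 115 ± 32.5 CPM and a log2 fold change of -0.09 (SE 0.25, adjusted p = 0.884, interval -0.62 to 0.44). The 7 days level was 0.76 log2 units above the 48 h level, which was not called (adjusted p = 0.18).

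The call of Gabra5 at 48 h rested on single mice. Without vehicle mouse 1 the log2 fold change was -0.58 (adjusted p = 0.0955) and without 48 h mouse 2 it was -0.66 (adjusted p = 0.0662). Without the 3 mice of differing header numbers it was -0.67 (adjusted p = 0.067), and with the Rn18s-rs5 share as a covariate -0.51 (adjusted p = 0.996).

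At 24 h 2 of the 7 genes (28.6%), Gabrb2 and Gabra5, had no overlap with the vehicle mice, where this was so of 35.7% of all tested genes. At 48 h these were again 2 of 7 (28.6%), the same 2 genes, against 38.1% of all genes. At 7 days it was 0 of 7, against 5.85% of all genes.

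Gabra3, on the X chromosome, encodes alpha3, an alpha subunit of synaptic receptors. It was the gene of the list with the fewest counts and measured 40.8, 26.6, 42.6 and 41.4 CPM in vehicle mice. The values were 11.3, 31.0, 28.3 and 28.2 CPM at 24 h, 18.8, 19.9, 28.9 and 29.1 CPM at 48 h and 34.4, 14.6, 22.1 and 18.6 CPM at 7 days. Vehicle mouse 2 overlapped the mice of every DOI group, while the other 3 vehicle mice lay above all 12 DOI mice. Means were 37.8 ± 7.53 CPM in vehicle mice, and 24.7 ± 9.02, 24.2 ± 5.58 and 22.4 ± 8.55 CPM in the 24 h, 48 h and 7 days groups. The log2 fold change was -0.62 at 24 h (SE 0.31, adjusted p = 0.144, 95% interval -1.26 to 0.02). At 48 h it was -0.64 (SE 0.31, adjusted p = 0.115, interval -1.29 to -0.0036). At 7 days it was -0.75 (SE 0.31, adjusted p = 0.223, interval -1.39 to -0.11), and none of these was called. Without 7 days mouse 1 the 7 days value was -1.04 and was called (adjusted p = 0.0481), in the fit that called 1342 of all genes.

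Gabra2 encodes alpha2, a subunit of synaptic receptors including those at the axon initial segment. It measured 164, 97.7, 203 and 188 CPM in vehicle mice, 168, 347, 242 and 202 CPM at 24 h, and 228, 249, 180.2 and 317 CPM at 48 h. Both DOI groups reached above the vehicle mice and overlapped them. The 7 days mice, at 158, 259, 105 and 229 CPM, lay on both sides of the vehicle mean of 163 ± 46.5 CPM, with mice 2 and 4 above every vehicle mouse. Log2 fold changes were 0.56 (SE 0.29, adjusted p = 0.163, 95% interval -0.05 to 1.16) at 24 h, 0.58 (SE 0.29, adjusted p = 0.134, interval -0.03 to 1.18) at 48 h and 0.20 (SE 0.29, adjusted p = 0.752, interval -0.40 to 0.81) at 7 days. No difference of Gabra2 was called. With the Rn18s-rs5 share as a covariate the sign turned, to -0.42, -0.43 and -0.28, again without a call.

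Gabra4 encodes alpha4, which pairs with delta in extrasynaptic receptors. It measured 225, 169, 209 and 228 CPM in vehicle mice, 201, 204, 270.4 and 193 CPM at 24 h, 205, 186, 196 and 252 CPM at 48 h, and 176, 259, 164 and 190.4 CPM at 7 days. The 4 groups overlapped, although the highest mouse of each DOI group lay above every vehicle mouse and 24 h mouse 3 stood apart from the other 3. The log2 fold changes were 0.06 (adjusted p = 0.817, 95% interval -0.31 to 0.44), 0.01 (adjusted p = 0.964, interval -0.37 to 0.39) and -0.07 (adjusted p = 0.864, interval -0.45 to 0.30), none of them called. The Rn18s-rs5 covariate turned the first 2 to -0.34 and -0.42, again without a call.

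Gabrd encodes delta, the subunit of extrasynaptic receptors with high GABA affinity. It measured 244, 273, 162 and 185 CPM in vehicle mice, 186, 220.5, 300.1 and 175 CPM at 24 h, 236, 187, 175 and 315 CPM at 48 h, and 224, 240.0, 245 and 178 CPM at 7 days. The group ranges overlapped throughout, with means from 216 ± 51.2 CPM in vehicle mice to 228 ± 63.4 CPM at 48 h. The log2 fold changes were 0.03 (adjusted p = 0.935, 95% interval -0.44 to 0.50), 0.08 (adjusted p = 0.811, interval -0.39 to 0.55) and 0.04 (adjusted p = 0.949, interval -0.43 to 0.51), none of them called.

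**Figure D2:**
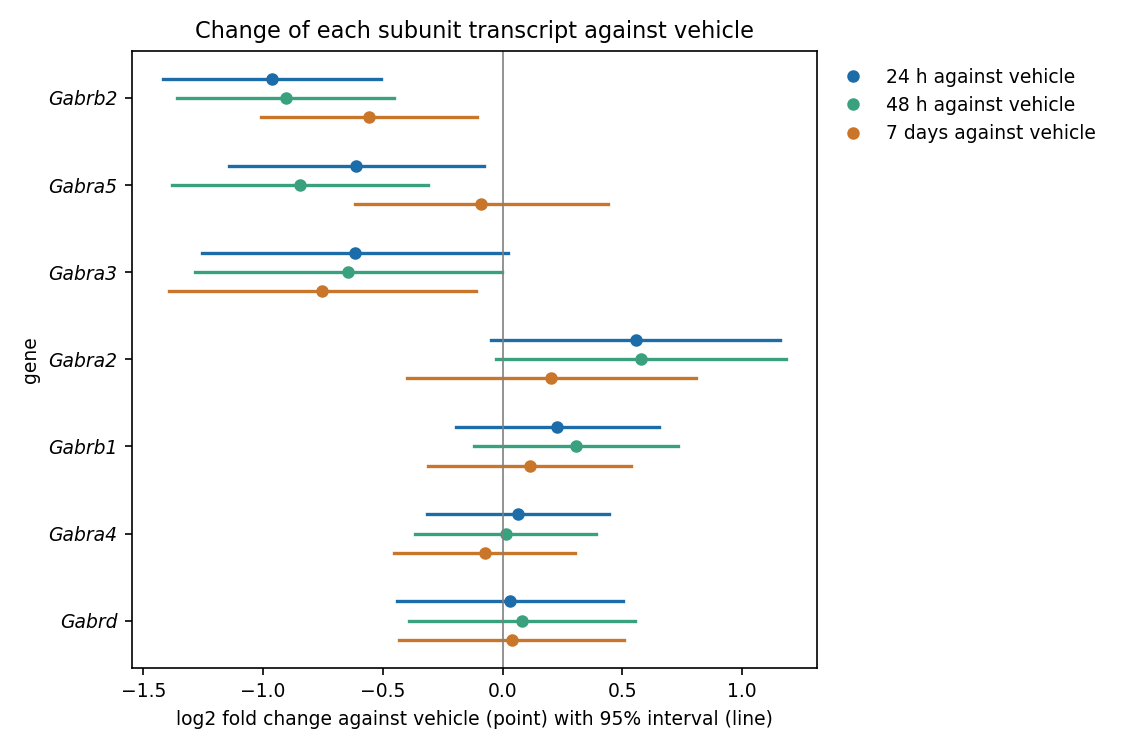
Log2 fold change against vehicle (horizontal axis) of each of the 7 genes at 24 h, 48 h and 7 days, with its 95% interval. The intervals of Gabrb2 lie below 0 at all 3 times, the 7 days one (-1.01 to -0.11) without a call. Those of Gabra3 at 48 h and 7 days (-1.39 to -0.11), also without a call, and of Gabra5 at 24 h and 48 h lie below 0 too. Those of Gabra4 and Gabrd are centred close to 0.

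Between the DOI groups, 0 of the 7 genes were called. Of all tested genes 0% were called for 48 h against 24 h, 0.00557% (1 gene) for 7 days against 24 h and 0% for 7 days against 48 h. At an unadjusted p below 0.05 these comparisons held 338, 2555 and 2959 of all genes and 0, 0 and 1 of the 7 (Gabra5, 7 days against 48 h).

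Because subunits of a class take the same places in the receptor, the make-up within a class was computed in each mouse. It used the genes of the list only and CPM per kb of exon, a scale that allows for gene length. The length was that of all annotated exons of a gene, whichever of its transcripts were present, so levels of different genes compare only roughly. These shares describe 4 alpha genes and 2 beta genes, not all subunits of the class, do not depend on how mice were scaled, and were not tested. Gabrb1 made up 37.0, 28.5, 36.4 and 32.3% of the summed level of Gabrb1 and Gabrb2 in vehicle mice 1 to 4. It made up 50.3, 59.4, 55.7 and 49.4% at 24 h and 51.2, 56.7, 50.1 and 60.5% at 48 h. Every mouse at these 2 times had a higher Gabrb1 share, and so a lower Gabrb2 share, than every vehicle mouse. The mean Gabrb1 share was 33.5% ± 3.97 (SD, n = 4) in vehicle mice, 53.7% ± 4.73 at 24 h and 54.6% ± 4.87 at 48 h. The summed level of both genes was 53.9, 39.6 and 41.5 CPM per kb in the same order, so a share of Gabrb1 could be higher while its own level was not called.

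In the 7 days group the Gabrb1 share was 35.9, 58.3, 35.7 and 50.9%. Mice 1 and 3 lay within the vehicle range and mice 2 and 4, the 2 with high Rn18s-rs5, lay above it. The part of Rn18s-rs5 in these shares was not tested.

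Among the 4 alpha genes, Gabra2 made up 16.4, 15.3, 25.4 and 23.0% of the summed level in vehicle mice, 25.7, 39.9, 29.6 and 27.9% at 24 h and 29.7, 39.7, 26.9 and 37.2% at 48 h. The lowest 24 h mouse lay just above the highest vehicle mouse, and the groups did not overlap. At 7 days the Gabra2 share was 18.3, 30.0, 16.4 and 31.2%, again higher in mice 2 and 4. The share of Gabra5 was 38.5% ± 7.95 in vehicle mice and 27.4% ± 5.14, 24.0% ± 7.18 and 38.4% ± 9.53 in the 24 h, 48 h and 7 days groups, each of which overlapped vehicle. The share of Gabra4 was 32.4% ± 2.86 in vehicle mice and 32.0 to 36.1% on average in the DOI groups, with overlap throughout. Gabra3 had the smallest share, at 7.96 to 10.4% in vehicle mice and 3.36 to 7.55, 4.77 to 8.40 and 3.28 to 7.75% in the 24 h, 48 h and 7 days groups. Its share in every 24 h and every 7 days mouse lay below the lowest vehicle mouse, while the 48 h group overlapped vehicle.

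**Figure D3:**
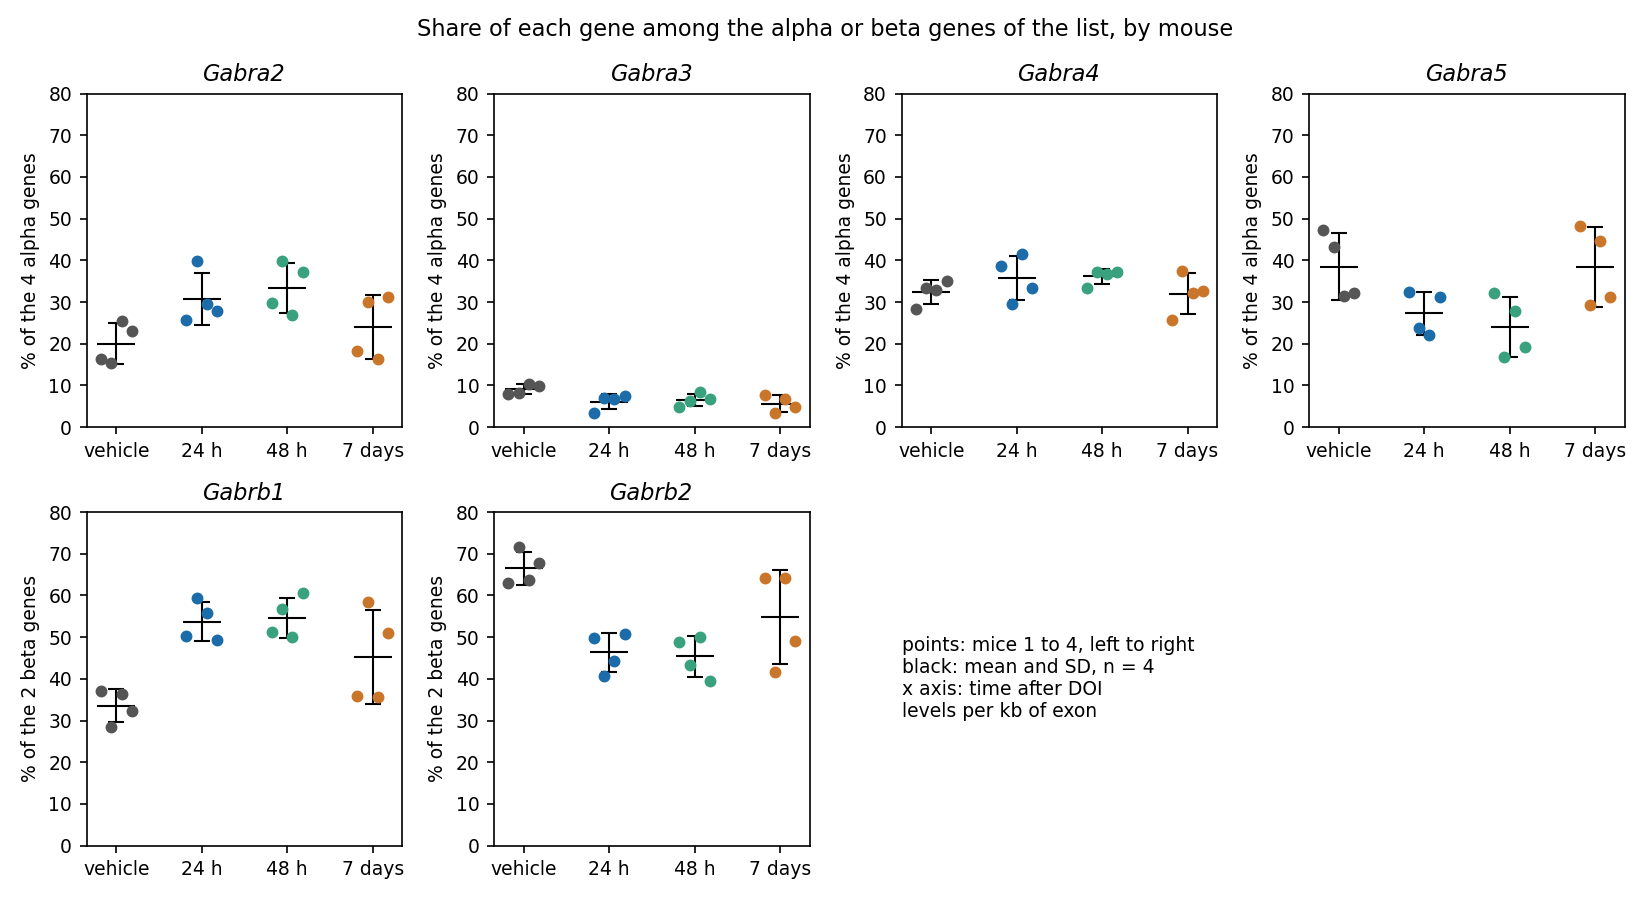
Share (percent, vertical axis) of each gene in the summed level per kb of the 4 alpha or the 2 beta genes of the list, in each mouse as points by group, with mean and SD. The Gabrb2 share is 63.0 to 71.5% in vehicle mice, 40.6 to 50.6% at 24 h and 39.5 to 49.9% at 48 h.

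The order of the 7 genes by level was also compared per kb of exon, with the same limit on comparing different genes. In vehicle mice Gabrd stood highest with 75.2 ± 17.8 CPM per kb (SD, n = 4). Gabra5 followed with 41.3 ± 13.7, Gabrb2 with 35.7 ± 2.58 and Gabra4 with 34.2 ± 4.46 CPM per kb. Neighbours among these 4 genes overlapped between mice. Gabra2 (21.4 ± 6.09) and Gabrb1 (18.2 ± 3.68) came next, below all mice of Gabra4 and overlapping each other, and Gabra3 was lowest with 9.65 ± 1.92 CPM per kb, below all mice of Gabrb1. At 24 h Gabrd (76.7 CPM per kb) was still first and Gabra3 (6.29) last, both without overlap with their neighbour. Gabrb2 was the third highest in vehicle mice and the sixth at 24 h (18.3 CPM per kb) and 48 h (19.1 CPM per kb). At 7 days it was the fifth, with 24.2 CPM per kb, within the mice of Gabra2 (24.6) and Gabrb1 (19.7).

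**Figure D4:**
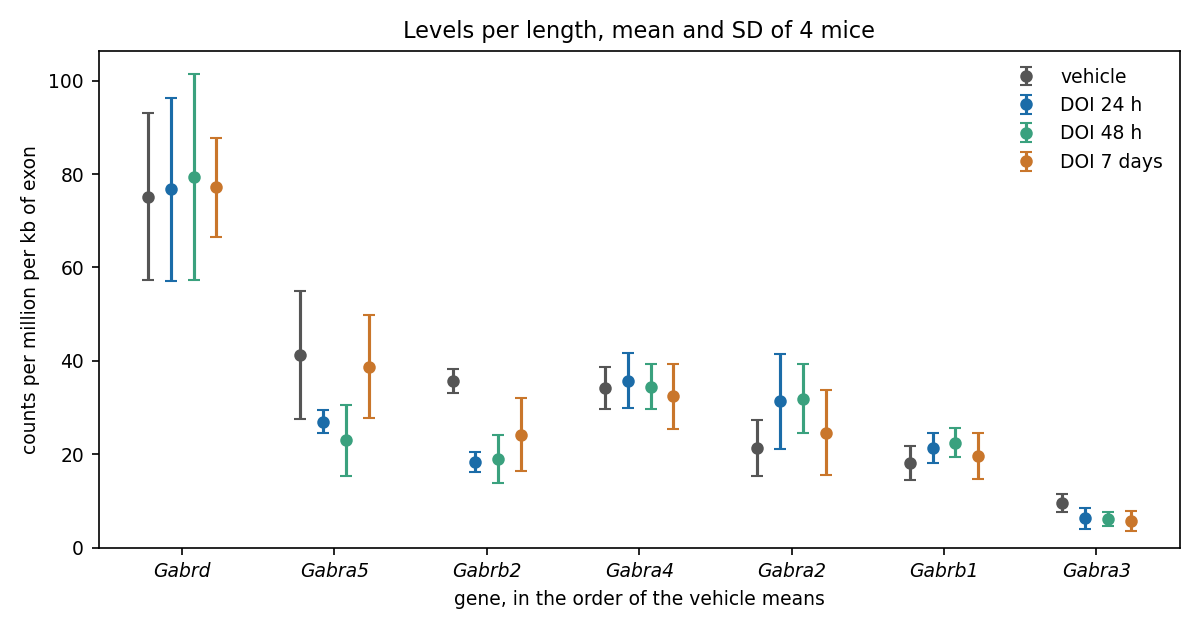
Level per kb of exon (CPM per kb, vertical axis) of the 7 genes by group, as mean and SD of the 4 mice. Gabrd is highest and Gabra3 lowest in each group, and Gabrb2 stands at 35.7 CPM per kb in vehicle mice, 18.3 at 24 h and 19.1 at 48 h.

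Of the 7 genes, 3 lie in 1 cluster on chromosome 5: Gabra2 (chr5:70957597-71095849, minus strand), Gabra4 (chr5:71569749-71658308, minus strand) and Gabrb1 (chr5:71658113-72149037, plus strand), with Gabrg1. None of these 3 was called at any time. Gabra4 and Gabrb1 overlap head to head by 196 bases, of which 46 are exonic in both, which is 0.76% of the exonic bases of Gabra4 and 0.33% of those of Gabrb1. Gabra3 lies at chrX:72432681-72656848 (minus strand) between Gabre and Gabrq, and Gabrd stands at chr4:155384980-155398112 (minus strand). Gabra5 shares 148 exonic bases, 4.98% of its own, with the long noncoding RNA Gm9962, which measured 1.78 CPM in vehicle mice and 3.97 CPM at 48 h and was not called. Reads on shared bases are left out by the counting, and without strand a gene and its antisense partner cannot be told apart there.

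Likeness of pattern was measured as the root mean square difference of log2 CPM, each gene centred on its mean, over the 16 mice. It is a description over mice that share groups and library features. A gene that varies little is near to any other such gene, so each gene's own root mean square spread about its mean is given: 0.205 for Gabra4, 0.276 for Gabrb1, 0.286 for Gabrd, 0.473 for Gabrb2, 0.479 for Gabra2, 0.486 for Gabra5 and 0.524 for Gabra3. Of the 21 pairs among the 7 genes, the smallest differences were 0.224 for Gabra4 and Gabrb1 and 0.288 for Gabra4 and Gabrd, both above the spread of Gabra4 itself. Gabra5 and Gabrb2 differed by 0.29, below the spread of either gene. Gabra2 and Gabrb2 were farthest apart (0.857). Over all genes searched, Rnf115 (0.141) and Tle4 (0.154) were nearest to Gabrb2, and Rab5if (0.192) and Cpe (0.225) to Gabra5. The nearest to Gabra2 were Slc35f1 (0.229) and Psme3 (0.248), to Gabra3 Ctdspl2 (0.267) and Dtx4 (0.271), and to Gabra4 Alg10b (0.125) and Nop58 (0.135). Kcnb2 (0.146) and Ntrk3 (0.157) were nearest to Gabrb1, and Opa3 (0.167) and Slc29a2 (0.17) to Gabrd.

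Counts over the other pathway lists stand against 13.8% of all tested genes called higher and 10.4% lower at 24 h, and 16.8% higher and 13.3% lower at 48 h. Of 20 tested genes for receptor anchoring, assembly and trafficking, 6 were called higher (Shisa7, Iqsec3, Trak1, Trak2, Dag1 and Mdga1) and 1 lower (Ubqln1) at both 24 h and 48 h, with median log2 fold changes of 0.32 and 0.20. Shisa7, a receptor-associated protein, measured 19.8 ± 3.02 CPM in vehicle mice, 114 ± 39.5 CPM at 24 h and 111 ± 17.2 CPM at 48 h, and its log2 fold changes were 2.53 (adjusted p = 0.00262) and 2.49 (adjusted p = 0.00194). Gphn, which encodes the scaffold gephyrin, was not called (0.16, adjusted p = 0.471 at 24 h). Of 5 tested GABA-B receptor genes 3 were called higher at each time, with medians of 0.65 and 0.70, namely Gabbr1, Gabbr2 and Kctd16. The receptor subunit gene Gabbr1 measured 119 ± 12.3 CPM in vehicle mice, 257 ± 20.6 CPM at 24 h and 302 ± 15.9 CPM at 48 h, with log2 fold changes of 1.11 (adjusted p = 0.00613) and 1.34 (adjusted p = 0.00219). Kctd16, an auxiliary subunit of the receptor, had log2 fold changes of 1.33 (adjusted p = 0.00361) and 1.34 (adjusted p = 0.00268).

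Gad1, which encodes a GABA-synthesizing enzyme, measured 632 ± 82.5 CPM in vehicle mice, 354 ± 71.9 CPM at 24 h and 415 ± 118 CPM at 48 h, and was called lower at both times (-0.84, adjusted p = 0.0135; -0.60, adjusted p = 0.0458). Of 4 tested chloride transport genes 2 were called higher at each time, with medians of 0.33 and 0.48, namely Slc12a5 and Wnk1. Slc12a5, the neuronal chloride exporter KCC2, had log2 fold changes of 0.54 (adjusted p = 0.0298) and 0.62 (adjusted p = 0.0132), and the kinase gene Wnk1, which acts on chloride cotransporters, had 1.73 (adjusted p = 0.00651) and 1.86 (adjusted p = 0.00377). No gene of these 3 lists was called at 7 days against vehicle. The median of all tested genes was 0.03 at 24 h and 0.02 at 48 h.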

How the data were processed

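RNA of NeuN-sorted frontal cortex nuclei was analysed from 16 mice in 32 libraries, made with SMART-seq2 and Nextera XT chemistry per the labels' protocols. The deposited count tables hold whole reads for each Ensembl gene. They came from featureCounts 2.0.0, run by the authors on GRCm38 exons at default settings as the headers record, so strand was not used and reads on shared exons or with several alignments were dropped. The aligner is not given in the sources used here. Totals were 2763704 to 7436451 counts per library. A level of 3 counts was 0.254 to 0.502 CPM, a floor that covers counting error only.

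Counts were added over both libraries of each mouse, and mice served as replicates. Genes were filtered with filterByExpr, scaled with TMM factors and fitted in 1 model of the 4 groups with edgeR 4.0.16 (quasi-likelihood test, R 4.3.3), with Benjamini-Hochberg adjustment over 17941 genes and a threshold of 0.05. The fit was tested on simulated data. Alternatives used DESeq2 1.42.0 and limma 3.58.1 (voom), other filters and scalings, a single library per mouse, covariates, a replicate block and each mouse left out. Intervals come from the same fit. The labels gave separate mice as replicates. Symbols were matched for 55141 gene IDs; lengths and spans are those of the count tables. Promoters were RefSeq's (GRCm38.p6).

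The members and lists were chosen with earlier results of these data known. Named by rule were the 7 members, the 2 genes nearest to each in pattern, the gene of each list with the smallest p at 24 h, and Gphn, Gabbr1, Gad1 and Slc12a5; some other genes and lists named by the rule are not reported here. Other genes named beside small counts were chosen after their values were seen.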

Additional observations from a re-analysis of the deposited data

Results flagged for a closer look

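In 4 of 28 sets of 4 mice (1 gene in 1 group) a single mouse stood apart, its gap to the nearest mouse divided by the range of the group being above Dixon's 95% critical value. Chance gives this in about 1 in 20 sets, or 1.4 of 28. For Gabra5, vehicle mouse 1 measured 184 CPM where the nearest mouse had 107 CPM (gap over range 0.89). For Gabra3, vehicle mouse 2 measured 26.6 CPM with the nearest at 40.8 CPM (0.885), and 24 h mouse 1 measured 11.3 CPM with the nearest at 28.2 CPM (0.859). For Gabra4, 24 h mouse 3 measured 270.4 CPM with the nearest at 204 CPM (0.856). Without vehicle mouse 1 the Gabra5 call at 48 h was lost.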

How the results depend on the processing

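Gabrb2 was called lower at 24 h and 48 h in every alternative fit at the 0.05 threshold except that with the Rn18s-rs5 covariate. The number of members called at 24 h was 1, against 2 with no filter on low counts, 2 with only the 2 groups compared, 3 with voom, 2 at an adjusted p below 0.1 and 0 with the Rn18s-rs5 share as a covariate. The added calls at 0.05 were Gabra5 and, with voom, Gabra2. At 48 h it was 2, against 4 with only the 2 groups (Gabra2 and Gabra3 added) and 3 with voom (Gabra3 added). It was 1 without the 3 mice of differing header numbers, 1 at an adjusted p below 0.01 and 0 with the Rn18s-rs5 covariate. It was 1 to 2 when a mouse was left out. Leaving out a mouse gave 0 to 2 at 7 days, and no filter gave 1 for 7 days against 48 h. The 4-group test called 1, against 2 with no filter, DESeq2, library 2 only, thinned counts, detected genes as a covariate or an adjusted p below 0.1, 3 with voom, 0 with the Rn18s-rs5 covariate or an adjusted p below 0.01, and 1 to 2 without a mouse. Mouse numbers did not pair the mice (mean correlation of same-numbered mice -0.0362, of others 0.0117), and no pairwise count of members changed with a replicate block, where the 4-group test called 2. At 24 h 4346 of all genes were called, against 7236 with voom and 2550 without 24 h mouse 4; at 48 h 5395, against 7784 with voom and 3514 without vehicle mouse 1; at 7 days 0, and 1342 without 7 days mouse 1. Log2 fold changes that turned sign were never called. With the Rn18s-rs5 covariate they were -0.42, -0.43 and -0.28 for Gabra2 at 24 h, 48 h and 7 days, -0.40, -0.36 and -0.17 for Gabrb1, -0.34 and -0.42 for Gabra4 at 24 h and 48 h, and 0.0228 for Gabra5 at 7 days. With no filter they were -0.0488 for Gabra4 at 48 h and -0.0133 for Gabrd at 24 h. For Gabra5 at 7 days voom gave 0.0466 and library 2 alone 0.0203. Without the 3 mice of differing header numbers the 7 days values were -0.0225 for Gabrb1 and -0.00108 for Gabrd. Leaving out a mouse gave, at 24 h, 48 h and 7 days, -0.0639 to 0.112, -0.105 to 0.069 and -0.236 to 0.0109 for Gabra4 and -0.16 to 0.15, -0.134 to 0.199 and -0.0759 to 0.164 for Gabrd, and at 7 days -0.30 to 0.17 for Gabra5 and -0.0264 to 0.27 for Gabrb1. The cause of these changes was not tested.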
